A study of Homo sapiens with 5 samples.

Results

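The comparison is CAPH2 knockdown (KD) against control in RMG1 cells, a human cell line established from a clear cell carcinoma of the ovary. It takes the 3 libraries, of 5 in the series, that the labels place in these groups. The control is 1 library from cells with a control hairpin RNA (shControl), with both ARID1A and CAPH2 labelled wild type. The KD group is 2 libraries from cells with a hairpin RNA against CAPH2 (shCAPH2), with ARID1A labelled wild type. The remaining 2 libraries are ARID1A knockouts made by CRISPR, with CAPH2 wild type. They entered the fits only to estimate how far libraries of 1 group spread, since a single control has no spread of its own. Each library was made by in situ Hi-C, which ligates pieces of DNA that lie close together in the nucleus and counts the joined pairs.

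CAPH2, now named NCAPH2, is the kleisin subunit of condensin II, the part that closes the ring of this SMC complex around DNA. Condensin II shortens chromosomes lengthwise, and it is known for keeping chromosomes in separate territories and centromeres apart from each other. The quantities that bear on these roles are contacts between chromosomes (trans), contacts along a chromosome (cis) by distance, contacts between the arms of a chromosome, contacts between centromeres, and the division of the genome into active (A) and inactive (B) compartments.

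Contacts were deposited as matrices of balanced signal between bins of 1 Mb. Balancing gives every bin of a library the same total, so the values below are shares or ratios within a library. The analysis covered chromosomes 1 to 22, with 2635 of 2667 bins. The contacts behind the signal, recovered from the values themselves, numbered 46.5 M (megacontacts) in the control, 54.1 M in KD replicate 1 and 82.5 M in KD replicate 2. Trans bin pairs without any contact made up 10.2% in the control, 7.22% in KD replicate 1 and 2.94% in KD replicate 2, so single bin pairs were read from the control least precisely. The level of CAPH2 itself could not be checked, because the matrices hold no expression and the bins are far wider than a gene. The labels do not say whether the KD libraries came from separate cultures or how many hairpins were used, so every p-value here reflects the spread from library to library alone, part of which may be technical.

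By contacts between chromosomes the KD libraries lay close to each other. Over the 231 pairs of chromosomes their log2 values differed by a median of 0.010, against 0.051 between the knockout libraries that lend the fit most of its spread. Sampling noise did not cover the gap between their bin totals (chi-square of 12.8 per degree of freedom), so they were kept as separate libraries. By bin totals KD replicate 2 lay nearer to the control (chi-square of 6.98 per degree of freedom) than to KD replicate 1, while KD replicate 1 and the control were farthest apart (25.8). No feature in any of the 9 families tested passed an adjusted p of 0.05 in limma's test of the KD against the control. Differences are therefore described by the value of each library (where a pair of values is given as "under KD", KD replicate 1 comes before replicate 2), by whether both KD libraries lay on the same side of the control, and by limma's standard error (SE) and p.

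Contacts between chromosomes took up more of the signal in both KD libraries. Trans contacts made up 22.5% of all signal in the control, 23.9% in KD replicate 1 and 23.7% in KD replicate 2. The difference came to 1.28 percentage points, with an SD of 0.173 between the KD libraries, and to 2.67 points when contacts within a bin were left out of the total. The knockout libraries had 21.4% and 20.7% of all signal in trans. Without contacts within a bin they had 40.8% and 42.8%, on both sides of the control at 41.4%, against 44.0% and 44.1% under KD. In recovered contacts the trans percent was 22.8% in the control, with a 95% exact binomial interval from 22.76% to 22.78%, and 24.0% and 23.9% in the KD libraries. These intervals cover counting error only. An exact permutation test of 1 library against 2 cannot give a p below 0.333, so this single value carries no test. Cis signal between different bins was lower, at 31.9% in the control against 30.4% and 30.1% in the KD libraries. Signal within a bin was 45.5% in the control and 45.6% and 46.3% under KD, and in recovered contacts 44.9% against 44.8% and 45.5%, so KD replicate 1 was then on the other side of the control.

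The difference was found on every chromosome. On 22 of 22 chromosomes (100%) the trans percent of both KD libraries exceeded that of the control, and on each of them both KD libraries lay farther from the control than from each other. In limma's test of log2 trans over cis signal 0 of 22 (0%) passed an adjusted p of 0.05 (11 at an unadjusted p under 0.05), and the lowest adjusted p was 0.0721. The call depended on the spread used. With recovered contacts in place of balanced signal 20 of 22 passed in limma, and with only the control and KD libraries in the fit 22 of 22 passed. Chromosomes of a library share its total trans percent, so the 22 values are not independent of each other. In this family limma pooled the spread over the 22 chromosomes, giving all the same SE (0.051, and 0.037 in recovered contacts). Its p-values thus treat the chromosomes as independent and are smaller than the number of libraries alone would allow. With each library's median over chromosomes taken out, which lowers the median difference from 0.11 to 0.003 on the log2 scale, 11 chromosomes were above and 10 below the control in both KD libraries.

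**Figure D1:**
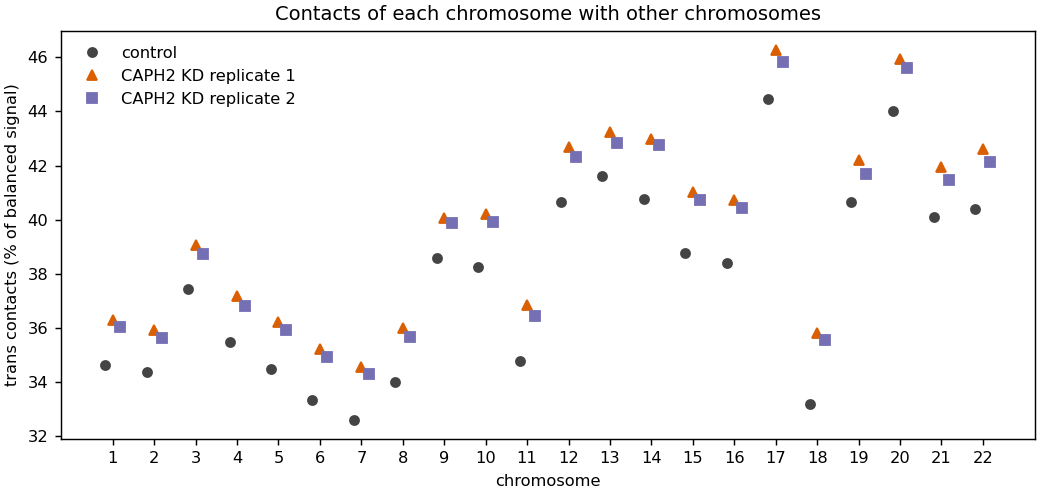
Trans contacts of each chromosome as a percent of its balanced signal (y axis) for chromosomes 1 to 22 (x axis), with 1 point per library. The KD libraries lie above the control on every chromosome, by 1.31 (chromosome 19) to 2.48 (chromosome 18) percentage points on average.

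Chromosome 18, small and poor in genes, differed most. Trans contacts made up 33.2% of its signal in the control, 35.8% in KD replicate 1 and 35.6% in KD replicate 2. The log2 ratio of trans over cis signal was higher by 0.16 (SE 0.051, limma adjusted p = 0.0721), and by 0.06 with the medians taken out. Chromosome 16 came next, with 38.4% in the control and 40.7% and 40.4% under KD, a log2 difference of 0.13 (SE 0.051, limma adjusted p = 0.0769). Chromosome 15 had 38.8% in the control and 41.0% and 40.7% under KD, and chromosome 14 had 40.8% against 43.0% and 42.8%. Chromosome 19, small and rich in genes, differed least, with 40.6% in the control and 42.2% and 41.7% under KD (log2 difference 0.08, SE 0.051, limma adjusted p = 0.134), and was at -0.02 with the medians taken out. Chromosomes 18 and 19, both small, thus lay at opposite ends in the balanced signal. In recovered contacts chromosome 18 was still highest, at 0.16, while chromosome 19 was at 0.11 and chromosome 4 was lowest, at 0.07.

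The share of all contacts that a chromosome supplied, which follows its copy number, was nearly the same in the control and KD libraries. Chromosome 18 supplied 1.98% of recovered contacts in the control, 1.98% in KD replicate 1 and 1.97% in KD replicate 2. The widest difference in points was that of chromosome 4, with 8.39%, 8.63% and 8.48% in the same order, and the widest ratio that of chromosome 19, with 1.73%, 1.63% and 1.70%.

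The next question was which chromosomes met each other more. For each of 231 pairs the observed signal was divided by the signal expected from the totals of both chromosomes, cis included. Both KD libraries were above the control in 223 pairs (96.5%) and below it in 4 pairs (1.73%), with a median log2 difference of 0.09. In limma 0 of 231 pairs (0%) passed an adjusted p of 0.05 (116 at an unadjusted p under 0.05), and the lowest adjusted p was 0.0689. In recovered contacts limma called 122 pairs, 121 higher and 1 lower. This count follows the overall trans percent: with the expectation taken from trans totals alone, 116 pairs were above and 90 below in both KD libraries, with a median of 0.004, 0 called and 13 with an unadjusted p under 0.05.

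**Figure D2:**
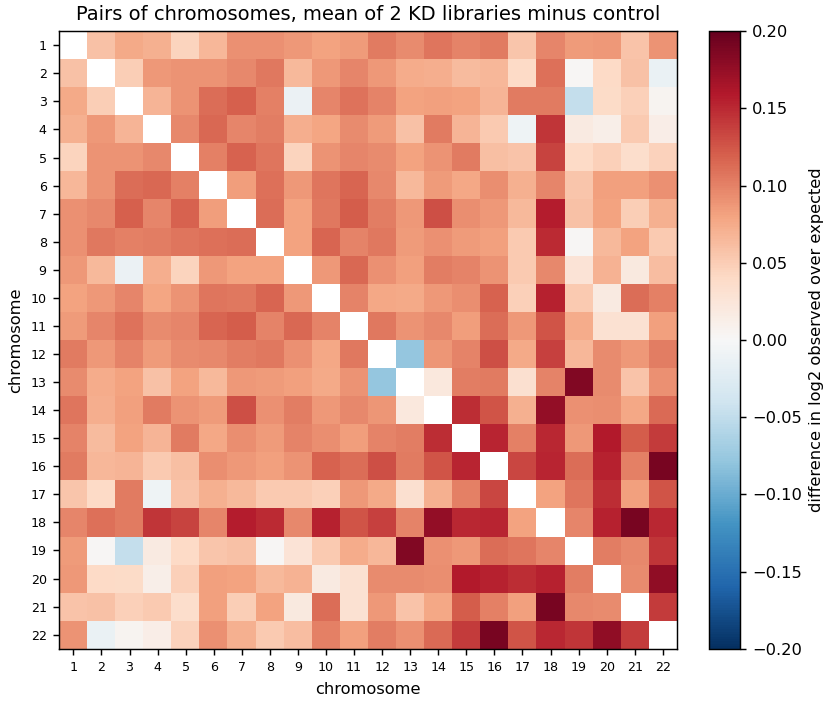
Difference in log2 observed over expected signal for each pair of chromosomes, mean of the 2 KD libraries minus the control (colour, red higher in the KD), with chromosome numbers on both axes. The row of chromosome 18 and the pairs among chromosomes 15, 16, 20 and 22 are among the reddest, and the pairs 12 with 13 and 3 with 19 are below 0.

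Pairs of small or acrocentric chromosomes had the highest values. Chromosomes 18 and 21 had a log2 observed over expected of -1.39 in the control and -1.19 and -1.21 under KD, a difference of 0.19 (SE 0.077, limma adjusted p = 0.111). Chromosomes 16 and 22 had -0.74 in the control and -0.54 and -0.56 under KD, also 0.19 (SE 0.044, limma adjusted p = 0.0710). Chromosomes 13 and 19 (0.18) and 20 and 22 (0.18) came next. Chromosomes 14 and 18 had the smallest p, with -1.53 in the control and -1.35 in both KD libraries (difference 0.18, SE 0.022, limma adjusted p = 0.0689). Each of these differences was larger than the gap between the KD libraries. Below them lay chromosomes 15 and 20 (0.16) and, at 0.15 each, 16 with 20, 18 with 20 and 15 with 16. The longer chromosomes 7 (0.16) and 10 (0.15) reached such values with chromosome 18.

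Few pairs lay below the control. Chromosomes 12 and 13 were lowest, with -0.58 in the control and -0.65 and -0.66 under KD, a difference of -0.08 (SE 0.10, limma adjusted p = 0.530). Chromosomes 3 and 19 had -1.14 in the control and -1.18 and -1.21 under KD, a difference of -0.05 (SE 0.045, limma adjusted p = 0.383). Both pairs hold strong joins, bin pairs whose trans signal was at least 50 times the mean. Without the bins around strong joins the differences were -0.07 and -0.04. The pairs 2 with 22 and 3 with 9 differed by -0.01 each, and 8 with 19 by 0.002.

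Grouped by kind of chromosome, the small gene-rich chromosomes 16, 17, 19, 20 and 22 had the highest median among themselves. All 10 of their pairs were above the control in both KD libraries, with a median difference of 0.14, against 0.09 over all 231 pairs. They ranged from 0.10 for 19 with 20 to 0.19 for 16 with 22. With the expectation from trans totals, all 10 were still above the control, with a median of 0.06 against 0.004 over all pairs. Their 25 pairs with the large chromosomes (1 to 5) differed by a median of 0.05, with 19 above and 2 below, and with trans totals the median was -0.03, with 4 above and 20 below. The 10 pairs within the large chromosomes had a median of 0.07 (all 10 above), and the 10 within the acrocentric chromosomes 13, 14, 15, 21 and 22 a median of 0.11 (all 10 above). The 60 pairs that hold a gene-poor chromosome (4, 13 or 18) had a median of 0.09, close to that of all pairs, with 57 above and 1 below. No pair of these lists was called by limma in the balanced signal.

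Within the gene-poor list chromosome 18 was highest. Its 21 pairs were all above the control, from 0.08 with chromosome 17 to 0.19 with chromosome 21, and their median of 0.14 was the highest of any chromosome. Chromosomes 17, 2 and 4 had the lowest medians, at 0.07 each. With trans totals in the expectation, the pairs of chromosome 18 had a median of 0.01, with 11 above and 9 below.

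Of the contacts along a chromosome, middle distances held a lower share in both KD libraries than in the control, and the shortest and longest distances a higher share. Of the signal between different bins of a chromosome, distances of 10 to 20 Mb took 9.51% in the control and 8.68% and 8.71% under KD. Distances of 20 to 50 Mb took 12.5% in the control and 11.5% in both KD libraries. The knockout libraries, with CAPH2 wild type, took 9.45% and 8.78% at 10 to 20 Mb and 11.1% and 10.6% at 20 to 50 Mb. The control was thus the highest of the 5 libraries in both classes. Whether it was the KD or the single control that stood apart was not tested. Distances of 100 Mb and over took 2.07% in the control and 2.37% in both KD libraries, a log2 ratio of 0.19 in each. The nearest bins, at 1 Mb, took 43.2% in the control and 44.5% in both KD libraries. The knockout libraries took 44.2% and 46.7%, so the control was the lowest of the 5 libraries in this class. Whether the KD or the control stood apart here was likewise not tested. Distances of 2 to 5 Mb took 18.9%, 19.3% and 19.2%, those of 5 to 10 Mb 9.13%, 8.87% and 8.88%, and those of 50 to 100 Mb 4.67%, 4.78% and 4.79%, in the control and in KD replicates 1 and 2.

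These shares are of a total that was itself lower in the KD libraries. As a share of all signal, an alternative chosen after seeing the data, only the class of 100 Mb and over was above the control, with 0.662% in the control and 0.721% and 0.712% under KD. The nearest bins then took 13.8% in the control and 13.6% and 13.4% under KD, below it in place of above, and the classes of 2 to 5 Mb and 50 to 100 Mb turned likewise, with mean log2 ratios of -0.05 and -0.04. At 10 to 20 Mb the mean log2 ratio was -0.21 in place of -0.13.

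**Figure D3:**
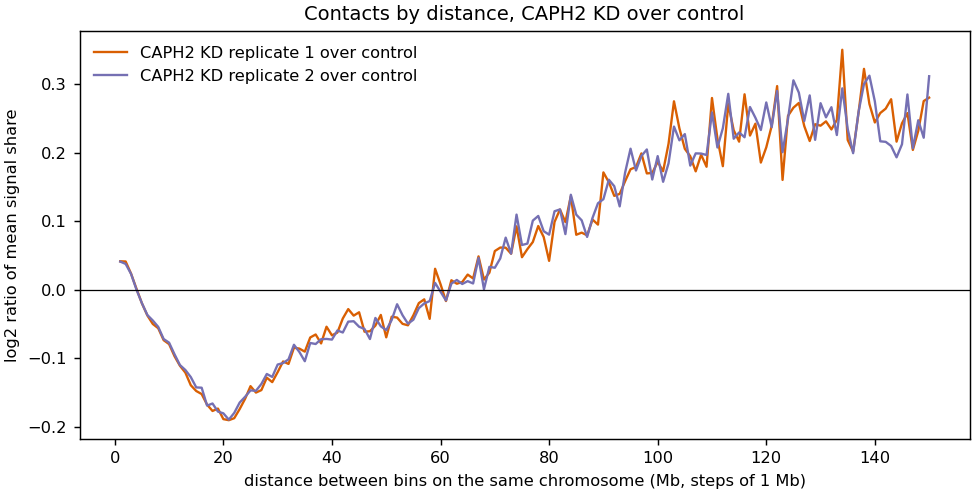
Log2 ratio of the mean signal share of bin pairs at each distance (y axis), KD over control, against the distance in steps of 1 Mb (x axis), with 1 line per KD library. Both lines cross 0 near 5 Mb, are lowest near 20 Mb, return to 0 near 61 Mb and stay above it from 70 Mb to 150 Mb.

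The curve of contacts against distance showed where the sign turned. Smoothed over 5 steps, both KD libraries lay below the control from 5 Mb on, were lowest at 20 Mb with log2 ratios of -0.18 and -0.18, and were back above the control at 61 Mb. In steps of 1 Mb both were below the control in 46 of 46 steps from 5 to 50 Mb and above it in 81 of 81 steps from 70 to 150 Mb. At 150 Mb the log2 ratios were 0.28 and 0.31. The decay from 5 to 20 Mb was steeper, with a log-log slope of -0.738 in the control and -0.825 and -0.823 under KD. From 50 to 100 Mb it was shallower, with -1.25 in the control and -1.012 and -1.003 under KD. From 20 to 50 Mb the slope was -1.21 in the control and -1.08 and -1.10 under KD. The knockout libraries also had a steeper slope than the control from 5 to 20 Mb, with -0.808 and -0.814. Theirs was -1.31 and -1.32 from 20 to 50 Mb and -1.16 and -0.982 from 50 to 100 Mb.

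Nearly all chromosomes shared this shape. Over the 142 classes of chromosome and distance, both KD libraries were above the control in 65 (45.8%) and below in 75 (52.8%), in limma 0 of 142 (0%) passed an adjusted p of 0.05 (20 at an unadjusted p under 0.05), and the lowest adjusted p was 0.138. At 10 to 20 Mb and at 20 to 50 Mb all 22 chromosomes were below the control in both KD libraries, with medians of -0.13 and -0.12. At 5 to 10 Mb 21 of 22 were below (median -0.05), with chromosome 18 the exception at 0.007. Under 2 Mb all 22 were above (median 0.05), and at 2 to 5 Mb 19 were above and 2 below. At 50 to 100 Mb 11 of 20 were above and 8 below. At 100 Mb and over all 12 chromosomes long enough were above, with a median of 0.22, and 9 of them had an unadjusted p under 0.05. Shares within a chromosome add up to a fixed whole, so a class that is higher lowers the others.

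Among the longest contacts, chromosome 11 was highest, with a log2 share of -6.79 in the control and -6.35 and -6.34 under KD (difference 0.44, SE 0.16, limma adjusted p = 0.346). Chromosome 8 had -6.65, -6.23 and -6.24 (0.41, SE 0.13, limma adjusted p = 0.320) and chromosome 7 had -5.36, -5.018 and -5.004 (0.35, SE 0.14, limma adjusted p = 0.353). Chromosomes 10 and 12 had the smallest p, with differences of 0.31 (SE 0.044) and 0.27 (SE 0.038), both at a limma adjusted p of 0.138, followed by chromosome 4 with 0.23 (SE 0.041, limma adjusted p = 0.164). Chromosome 1 was lowest of the 12, at 0.09. With the class under 2 Mb left out of the shares, limma called 5 of 120 classes, all higher: 100 Mb and over on chromosomes 6, 9, 10 and 12, and 50 to 100 Mb on chromosome 19.

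The lowest values against the control were on small chromosomes. On chromosome 22 the 20 to 50 Mb class had a log2 share of -4.52 in the control and -4.91 and -4.85 under KD, a difference of -0.36 (SE 0.15, limma adjusted p = 0.353). Its 10 to 20 Mb class had -3.33 in the control and -3.57 and -3.58 under KD (-0.25, SE 0.15, limma adjusted p = 0.483). Chromosome 21 was lower by a log2 of -0.32 at 20 to 50 Mb (SE 0.15, limma adjusted p = 0.374), and chromosome 16 by -0.23 (SE 0.11, limma adjusted p = 0.423). Chromosome 18 was lower at 50 to 100 Mb too, with -5.59 in the control and -5.83 and -5.81 under KD (-0.24, SE 0.10, limma adjusted p = 0.360), where the median over 20 chromosomes was 0.03. In each of these classes the control was the highest of the 5 libraries. On chromosome 22 at 20 to 50 Mb the knockout libraries had -4.71 and -5.04, and on chromosome 18 at 50 to 100 Mb -6.10 and -6.32. The SEs of these classes are large against the gap between the KD libraries because they hold the spread of the knockout libraries.

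Local contacts were also read bin by bin, as the log2 share of a bin's cis signal that goes to bins 1 to 4 Mb away. Both KD libraries were above the control in 2328 of 2635 bins (88.3%) and below it in 129 (4.9%), with a median difference of 0.04. In limma 0 bins (0%) passed an adjusted p of 0.05 (104 at an unadjusted p under 0.05). The bin chr5:71000001-72000000 (hg19, as all positions here) had the smallest p, with -1.27 in the control and -1.12 and -1.13 under KD (0.14, SE 0.027, limma adjusted p = 0.631). The bin chr12:33000001-34000000, near the centromere, had -1.21 in the control and -1.07 and -1.05 under KD (0.15, SE 0.029, limma adjusted p = 0.631). The knockout libraries were also above the control in both bins, with -1.16 and -1.20 in the first and -1.08 and -1.11 in the second. The lowest values lay at chromosome ends and on chromosomes 1 and 18: chr1:248000001-249000000 had -1.55 in the control and -1.66 in both KD libraries, and chr18:43000001-44000000 had -0.65 against -0.72 and -0.74.

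At the longest distances the ratio of KD to control was higher between the arms of chromosomes than within an arm. Between arms lie 93.2% of all bin pairs at 100 Mb and over, and 95.05% of the control's signal there. At that range, bin pairs on different arms took 1.97% of cis signal between bins in the control and 2.26% in both KD libraries, a log2 ratio of 0.20 in each, and pairs on the same arm 0.103%, 0.110% and 0.110% (log2 ratios 0.11 and 0.10). At 50 to 100 Mb the log2 ratios were 0.07 and 0.07 between arms and -0.001 and 0.003 within an arm (0.004 and 0.007 in recovered contacts). At 10 to 20 Mb they were -0.14 and -0.13 within an arm and -0.07 and -0.07 between arms. The values at 10 to 20 Mb and at 100 Mb and over had the same sign and order in recovered contacts. At 20 to 50 Mb the log2 ratios were -0.12 and -0.12 within an arm and -0.10 and -0.10 between arms. The 2 kinds of pair were not matched for distance or chromosome, with 2689 same-arm pairs against 36977 between arms at 100 Mb and over. The log2 ratio over all pairs rose with distance, from -0.07 and -0.06 at 50 Mb to 0.28 and 0.31 at 150 Mb. Whether the arms differed at equal distance was not tested.

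Taken per chromosome, the share of contacts between arms was higher on long chromosomes and lower on short ones. Of the 17 chromosomes with both arms measured, both KD libraries were above the control in 12 (70.6%), chromosomes 1 to 12, and below it in 5 (29.4%), chromosomes 16 to 20. In limma 0 of 17 (0%) passed an adjusted p of 0.05 (2 at an unadjusted p under 0.05), chromosomes 7 and 1. Chromosome 7 had a log2 share of -3.52 in the control and -3.41 and -3.40 under KD (0.12, SE 0.025, limma adjusted p = 0.188). Chromosome 1 had -3.17 in the control and -3.08 and -3.09 under KD (0.08, SE 0.022, limma adjusted p = 0.189). Chromosome 18 was lowest, with -3.70 in the control and -3.90 in both KD libraries (-0.20, SE 0.14, limma adjusted p = 0.375). The knockout libraries had -4.16 and -4.48 there. On chromosomes 16 to 20 the control was the highest of the 5 libraries and both knockout libraries lay below the KD. On chromosomes 1 to 12 both knockout libraries lay below the control. Whether the KD or the single control stood apart was not tested. Chromosome 12 was nearest to 0, at 0.007, and was at -0.001 in recovered contacts.

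The split between long and short chromosomes depended on the near contacts in the denominator. With contacts under 10 Mb left out, 16 of the 17 chromosomes were above the control and limma called 6, all higher: chromosomes 1, 2, 4, 6, 9 and 12. Chromosomes 16, 17, 19 and 20 then had differences of 0.10, 0.02, 0.04 and 0.08. Chromosome 18 was still below the control, at -0.06 (SE 0.081, limma adjusted p = 0.494), the only one of the 17 to do so. Chromosome 7 had the highest value by this measure too, at 0.20 (SE 0.067, limma adjusted p = 0.0796).

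Centromeres met each other more in the KD libraries than the chromosomes that carry them. Centromere-proximal bins were the 5 measured bins next to the centromere on each arm, 195 bins in all. Their trans signal with each other, over that expected from the signal of each chromosome pair, was 1.39 in the control and 1.62 and 1.60 under KD. In recovered contacts it was 0.983, 1.14 and 1.13. The knockout libraries had 1.28 and 1.54, and in recovered contacts 0.886 and 1.05. By this ratio they lay farther from each other than the KD libraries lay from the control, and the difference carries no test. Of all trans signal, 0.808% lay between centromere-proximal bins in the control and 0.941% and 0.931% under KD. The overall trans percent does not enter the ratio, since the signal of each pair of chromosomes is divided out.

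Over the 231 pairs of chromosomes, both KD libraries were above the control for centromere-proximal signal in 193 (83.5%) and below it in 7 (3.03%), with a median log2 difference of 0.21. In limma 0 pairs (0%) passed an adjusted p of 0.05 (10 at an unadjusted p under 0.05). These sums rest on few bins, and the knockout libraries differed from each other by a median of 0.30 here, against 0.09 between the KD libraries. In 152 pairs both KD libraries lay farther from the control than from each other. With windows of 3 and 10 bins, both KD libraries were above the control in 168 and 216 pairs.

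The pair of centromeres with the largest difference was that of chromosomes 8 and 22, with a log2 observed over expected of 0.52 in the control and 1.23 and 1.16 under KD (0.67, SE 0.21, limma adjusted p = 0.709). Next came chromosomes 6 and 15, with 0.13 in the control and 0.75 and 0.86 under KD (0.67, SE 0.22, limma adjusted p = 0.709). Chromosomes 3 and 17 had -0.61 in the control and -0.12 and -0.07 under KD (0.51, SE 0.20, limma adjusted p = 0.709). Chromosomes 2 and 22 differed by 0.51 and 3 and 19 by 0.50. In all 5 the KD libraries lay well apart from the control, while none passed the adjusted test. The lowest pair was that of chromosomes 1 and 15, with 0.33 in the control and 0.14 and 0.17 under KD (-0.17, SE 0.20, limma adjusted p = 0.734), followed by 13 with 19 (-0.14) and by 14 with 18, 18 with 19 and 9 with 10 (-0.09 each).

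Chromosomes differed in how much their centromeres joined in. The median over a chromosome's 21 centromere pairs was highest for chromosome 6 (0.29), chromosome 2 (0.28) and chromosome 11 (0.28). It was lowest for chromosome 9 (0.05, with 8 of 21 pairs above and 1 below), chromosome 19 (0.08) and chromosome 15 (0.09). Chromosome 18, which led in whole-chromosome trans contacts, had a median of 0.15, with 17 of its 21 centromere pairs above and 2 below. The 10 pairs within the acrocentric chromosomes had a median of 0.08, with 6 above and 0 below, against 0.24 for the 10 within chromosomes 1 to 5 and 0.26 for the 25 that join chromosomes 1 to 5 with 16, 17, 19, 20 or 22. The acrocentric chromosomes contribute a single measured arm each, so their values rest on fewer bins.

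At chromosome ends the libraries lay closer together. The outermost 5 measured bins of each arm had a trans signal with each other of 1.85 times expected in the control and 1.88 and 1.87 under KD, and in recovered contacts 1.38, 1.36 and 1.38. Of 231 pairs, both KD libraries were above the control in 97 (42%) and below it in 73 (31.6%), with a median of 0.02, and in recovered contacts above in 77 and below in 101, with a median of -0.01. In limma 0 (0%) passed an adjusted p of 0.05 (4 at an unadjusted p under 0.05). The pair 13 with 15 had the smallest p, with 0.71 in the control and 1.08 and 1.18 under KD (0.41, SE 0.13, limma adjusted p = 0.995). The pair 15 with 17 had -0.98 in the control and -0.53 and -0.58 under KD (0.42, SE 0.13, limma adjusted p = 0.995), and was at -0.12 when weaker bins were left out. The pair 11 with 21 was lowest, at 0.98 in the control and 0.64 and 0.69 under KD (-0.32, SE 0.13, limma adjusted p = 0.995). Contacts of centromeres with ends of other chromosomes were 1.06 times expected in the control and 1.01 in both KD libraries. Whether centromeres differed by more than ends was not tested.

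**Figure D4:**
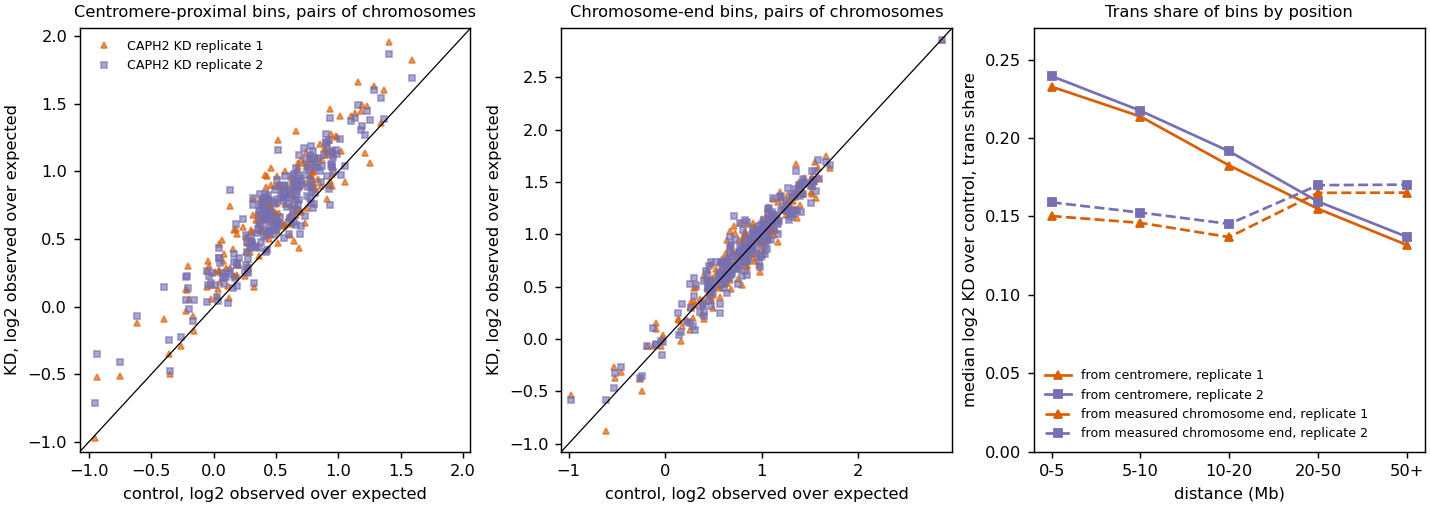
Left and middle, log2 observed over expected signal between centromere-proximal bins and between chromosome-end bins of 231 pairs of chromosomes, control (x axis) against each KD library (y axis), with the line of equal values. Right, median log2 ratio of trans share over bins, KD over control, by distance from the centromere (solid) or the nearest measured chromosome end (dashed). Centromere pairs lie mostly above the line, end pairs around it, and the trans share differs most near centromeres.

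A like order by position appeared in the trans share of single bins, the log2 of trans over cis signal without the same bin. Both KD libraries were above the control in 2619 of 2635 bins (99.4%) and below it in 5 (0.19%), with a median difference of 0.16. In limma 0 bins (0%) passed an adjusted p of 0.05 (561 at an unadjusted p under 0.05). With each library's median over bins taken out, 1130 bins were above and 1141 below. Within 5 Mb of the centromere (171 bins) the median log2 ratios were 0.23 and 0.24 in KD replicates 1 and 2. At 5 to 10 Mb they were 0.21 and 0.22, at 10 to 20 Mb 0.18 and 0.19, at 20 to 50 Mb 0.15 and 0.16, and from 50 Mb on (969 bins) 0.13 and 0.14. By distance from the nearest measured chromosome end the medians stayed between 0.14 and 0.17 and showed no such order. Bins far from the centromere lie on long arms, so distance and chromosome are not independent here.

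The 5 bins with the highest values lay within 10 Mb of a centromere. The bin chr16:31000001-32000000 had a log2 trans over cis of 0.35 in the control and 0.79 in both KD libraries (0.44, SE 0.16, limma adjusted p = 0.214), and chr16:34000001-35000000, on the same arm, had 1.10, 1.49 and 1.48 (0.38). The bin chr14:20000001-21000000, at the start of the measured arm of an acrocentric chromosome, had 0.48 in the control and 0.90 and 0.87 under KD (0.41, SE 0.073, limma adjusted p = 0.214). The bin chr10:48000001-49000000 had -0.32, 0.13 and 0.04 (0.41), and chr16:52000001-53000000 had -0.41, -0.04 and -0.04 (0.37). At chr16:31000001-32000000 the knockout libraries had 0.52 and 0.88, and at chr16:34000001-35000000 1.17 and 1.55. Knockout replicate 2 was thus above both KD libraries in these bins. At chr14:20000001-21000000 the knockout libraries had 0.59 and 0.71, also above the control. In the bins chr10:48000001-49000000 and chr16:52000001-53000000 they lay on both sides of the control. The bins chr4:45000001-46000000 (0.35, SE 0.061) and chr14:25000001-26000000 (0.31, SE 0.055) had the smallest p, each with a limma adjusted p of 0.214. The 5 bins below the control differed by at most 0.04 in size: chr20:9000001-10000000 (-0.04), chr2:227000001-228000000 (-0.03), chr11:14000001-15000000 (-0.02), chr2:225000001-226000000 (-0.01) and chr11:13000001-14000000 (-0.003). The last of these was at 0.008 in recovered contacts.

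The division into A and B compartments was kept, with the contrast between them somewhat sharper. Compartments were read from the first eigenvector of each chromosome's correlation matrix, scaled to an SD of 1, and correlated at 0.988 between the control and each KD library and at 0.996 between the KD libraries, over 2635 bins. The correlation with the control was lowest on chromosome 5, at 0.968 and 0.962. Compartment strength, the signal of like over unlike bins among the outer 20% of bins, was 3.48 within chromosomes in the control and 3.61 and 3.75 under KD. In trans it was 2.20 in the control and 2.33 and 2.35 under KD. With 1 control library these values carry no test, and within chromosomes the gap between the KD libraries was as wide as that from the control to the nearer of them. The knockout libraries, with 30.6 M and 31.6 M recovered contacts, had 2.84 and 3.22 within chromosomes and 1.88 and 2.01 in trans. In the balanced signal both strengths thus rose with the number of recovered contacts over the 5 libraries. Whether depth plays a part was not tested.

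**Figure D5:**
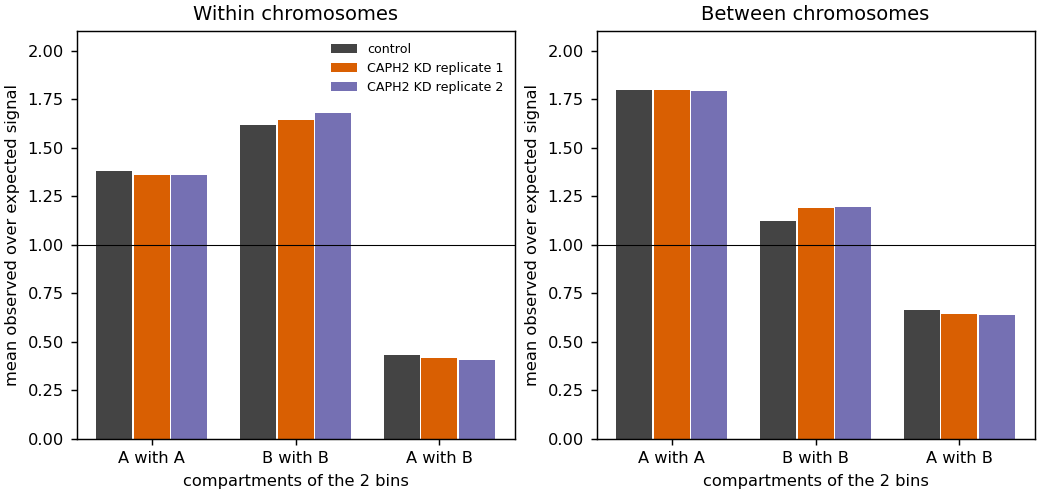
Mean observed over expected signal between bins of the outer 20% by the control's eigenvector (bars, y axis from 0) for A with A, B with B and A with B bins (x axis), within chromosomes (left) and between chromosomes (right), with 1 bar per library. Between chromosomes the B with B bars are higher and the A with B bars lower in both KD libraries, and the A with A bars are level.

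The parts of this contrast differed. Between chromosomes, B with B signal was 1.12 times expected in the control and 1.19 and 1.20 under KD. A with A signal was 1.80 in the control, 1.80 in KD replicate 1 and 1.79 in KD replicate 2. A with B signal was 0.661 in the control and 0.641 and 0.636 under KD. In the balanced signal, of the like contacts across chromosomes, those of inactive chromatin were thus higher and those of active chromatin level. The level A with A value depended on the balancing. As shares of recovered trans contacts, an alternative chosen after seeing the data, A with A had log2 ratios of -0.08 and -0.04, B with B 0.17 and 0.13, and A with B -0.04 and -0.06. Bins were also sorted by the knockout libraries, also after seeing the data, taking on each chromosome whichever of the first 3 eigenvectors matched the control best (correlations of 0.872 to 0.990). The log2 ratios in the balanced signal for B with B were then 0.08 and 0.09, for A with A -0.0005 and -0.003, and for A with B -0.04 and -0.05.

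Within chromosomes, contacts at 10 to 50 Mb were lowest against the control between unlike compartments. There A with B signal had log2 ratios of -0.20 and -0.26 in KD replicates 1 and 2. A with A signal had -0.10 and -0.10, and B with B signal -0.11 and -0.08. From 50 Mb on, B with B signal was higher by 0.10 and 0.13, A with A by 0.07 and 0.07, and A with B by 0.07 and 0.04. At 2 to 10 Mb B with B signal had 0.01 and 0.04, A with A -0.03 and -0.02, and A with B -0.04 and -0.12, so there the sign differed between compartments. In recovered contacts A with A from 50 Mb on had -0.02 and 0.03, on both sides of the control, and A with B at 10 to 50 Mb had -0.20 and -0.26 as before.

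Few bins lay on the other side. The eigenvector had the opposite sign to the control in both KD libraries in 67 of 2635 bins (2.54%), of which 25 were A and 42 were B in the control. All 67 lay within 0.5 of 0 in the control, and none was beyond 0.3 on both sides of 0 in all 3 libraries. Over all bins, both KD libraries were above the control in 1129 (42.8%) and below it in 970 (36.8%). In limma 0 (0%) passed an adjusted p of 0.05 (46 at an unadjusted p under 0.05). This fit used the first eigenvector of every library, and on chromosome 5 that of knockout replicate 1 correlated with the control at only 0.003. With the best match among the first 3 eigenvectors limma also called 0 bins (65 at an unadjusted p under 0.05). Chromosome 5 held 12 of the 67 and chromosome 4 held 7.

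A stretch on chromosome 18 had the largest difference towards B. The bin chr18:43000001-44000000 had an eigenvector value of 1.05 in the control and 0.28 and 0.29 under KD (-0.77, SE 0.10, limma adjusted p = 0.999), still on the A side. Its neighbour chr18:42000001-43000000 had 0.14 in the control and -0.65 and -0.48 under KD (-0.70, SE 0.13, limma adjusted p = 0.999). The same bin chr18:43000001-44000000 was among the 5 lowest in local share. The third smallest p was that of chr4:20000001-21000000, with -0.61 in the control and -0.98 and -1.04 under KD (-0.41, SE 0.082). The largest difference towards A was at chr14:57000001-58000000, with -0.28 in the control and 0.39 and 0.52 under KD (0.74, SE 0.25, limma adjusted p = 0.999).

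Which bins ranked highest and lowest depended on the balancing. In recovered contacts the difference at chr14:57000001-58000000 was 0.47, and that at chr5:75000001-76000000, 0.72 in the balanced signal, was highest at 0.97. The bin chr18:43000001-44000000 was at -0.89, while the 20 lowest bins all lay on chromosome 19, down to -1.71 at chr19:18000001-19000000. On chromosome 19 the eigenvector from recovered contacts correlated with that of the control at 0.951 in KD replicate 1 and at 0.529 in KD replicate 2.

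The strong joins were shared by the control and KD libraries. Strong joins, bin pairs of different chromosomes with a signal of 50 or more times the mean trans signal, numbered 41 regions, and 40 of them reached that ratio in all 3 libraries. The log2 ratio of KD to control over the joins had a median of -0.11 in each KD library, and 32 of 41 were below the control in both. The mean trans signal in the denominator was itself higher in the KD libraries, as trans contacts took 23.9% and 23.7% of signal against 22.5%. A join of unchanged signal would therefore read below the control. Whether the joins differed apart from this was not tested. The join of chr1:22000001-23000000 with chr10:78000001-79000000 was lowest, at 98.4 times the mean in the control and 74.6 and 70.4 under KD. It was at 1.97 and 0.667 in the knockout libraries, so the libraries that lend the spread differ from the control and KD libraries at this join. At some joins the knockout libraries also differed from each other. That of chr11:116000001-117000000 with chr20:8000001-9000000 was at 0.608 and 335 in them, and that of chr1:26000001-27000000 with chr5:56000001-57000000 at 6.12 and 126. Whether such differences widened the SEs was not tested.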

How the data were processed

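Each library has 1 deposited file, a matrix of contact signal at 1 Mb. The submitters' processing notes name Bowtie2 and hg19. The sources used here do not give versions, read filters or the software behind the matrices. The deposited signal was found to be balanced, with equal row sums inside a library, so shares or ratios were used. Balancing also takes out copy number.

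Each value equals a contact number multiplied by the factors of both bins. The factors were solved from exact ratios, and 98.2% to 99.2% of nonzero values came out whole within 0.001. Bins under 0.25 of the control's median contacts were left out (32).

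Values were tested in R 4.3.3 with lmFit and eBayes of limma 3.58.1, after taking log2, in 1 fit of all 5 libraries with 2 residual degrees of freedom and Benjamini-Hochberg adjustment over each family; the eigenvector was not logged. eBayes also borrows spread across the features of a family, and for the chromosome trans share it used 1 pooled spread for all 22 chromosomes. The bin trans share used a pseudocount of 0.5. Other steps used Python 3.11.15 and numpy 2.4.6. Recovery and the limma step were tested on simulated data. Centromeres were placed at the longest unmeasured run of bins. Named features were the 3 with the smallest p and the 5 highest and 5 lowest with both KD libraries on 1 side of the control, every chromosome where a family has 1 value for each, and every distance class. Members and lists were chosen with earlier results of these data known. Alternatives covered recovered contacts, bin filters, windows, scaling, joins, libraries left out and the spread used.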

Additional observations from a re-analysis of the deposited data

How the results depend on the processing

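No paired analysis was possible because the control has 1 library, so the groups compared share fewer than 2 replicate numbers. The main limit is that the control has no replicate and that the spread comes mostly from the ARID1A KO libraries, which differ more from each other than the KD libraries do. With only the control and KD libraries in the fit (1 residual degree of freedom, the lone control assumed to vary like the KD), limma called 22 chromosomes by trans share, 219 chromosome pairs, 135 distance classes, 16 chromosomes by contacts between arms, 2557 bins by trans share and 1720 by local share, and 0 in the other 3 families. Leaving out 1 ARID1A KO library gives the same fit. Leaving out 1 library at a time therefore gave from 0 to those counts, and 0 without either KD library in all 9 families. With recovered contacts limma called 20 chromosomes by trans share and 122 pairs. Without the class under 2 Mb it called 5 distance classes, and without contacts under 10 Mb 6 chromosomes by contacts between arms.

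The trans percent difference, 1.28 points, was 2.67 without contacts within a bin, and 2.34 in recovered contacts without them, a setting added after seeing the data. In that added setting the knockout libraries had 42.5% and 44.7%, against 41.3% in the control and 43.5% and 43.8% under KD. The difference in trans compartment strength was 0.14, and was 0.10 in recovered contacts, 0.18 with each library's own eigenvector, 0.18 with the outer 10% of bins and 0.092 with the outer 30%. The centromere difference, 0.217, was 0.151 in recovered contacts, 0.192 with stricter bins, 0.254 with windows of 3 bins and 0.159 with 10. The difference at chromosome ends, 0.0207, was -0.0112 in recovered contacts, 0.0361 with windows of 3 bins and 0.00639 with 10. In recovered contacts, an alternative added after seeing the data here, the log2 differences by distance class were 0.036 under 2 Mb, 0.035 from 2 to 5 Mb, -0.039 from 5 to 10 Mb, -0.125 from 10 to 20 Mb, -0.111 from 20 to 50 Mb and 0.183 at 100 Mb or more. As shares of all signal and of all recovered contacts, also added later, they were -0.0362 and -0.0295 under 2 Mb, -0.0495 and -0.031 from 2 to 5 Mb, -0.12 and -0.105 from 5 to 10 Mb, -0.207 and -0.191 from 10 to 20 Mb, -0.195 and -0.177 from 20 to 50 Mb, -0.0424 and -0.0313 from 50 to 100 Mb, and 0.116 and 0.117 at 100 Mb or more. Signs turned at chromosome ends, in 3 of these classes, and, in recovered contacts, in A with A signal and, for KD replicate 1, in within-bin signal and in same-arm signal from 50 to 100 Mb.

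Of 1040 checks of 117 named features, 26 turned the sign. With medians taken out, the trans share was negative on chromosomes 19 (-0.0246), 9 (-0.0185), 13 (-0.0184), 2 (-0.0146), 3 (-0.0139), 17 (-0.0110), 21 (-0.0082), 4 (-0.0075), 1 (-0.0057), 5 (-0.0022) and 20 (-0.00071). Contacts between arms turned on chromosomes 16 (0.097), 17 (0.021), 19 (0.038) and 20 (0.076) without contacts under 10 Mb, on 19 (0.028) with stricter bins and on 12 (-0.0012) in recovered contacts. The pair 8 with 19 was at -0.013 with stricter bins, -0.081 with medians taken out and -0.072 with trans totals. Centromere pair 14 with 18 was at 0.060 and 0.059 with windows of 10 and 3 bins, and 18 with 19 at 0.073 with 3. The ends of 15 and 17 were at -0.116 with stricter bins and -0.013 with windows of 10, and the bin chr11:13000001-14000000 was at 0.0083 in recovered contacts. The cause was not tested in these cases.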

Other observations

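Contacts between the ends of the same chromosome were higher in the KD libraries, while contacts across its own centromere were level. On the 17 chromosomes with both arms measured, the outermost 5 bins of the short arm with those of the long arm took 0.0460% of the cis signal between bins in the control and 0.0504% and 0.0514% under KD (replicates 1 and 2). Both KD libraries were above the control on 13 of the 17 chromosomes and below it on 2. The 5 bins on either side of the centromere took 0.334% in the control and 0.334% and 0.332% under KD (replicates 1 and 2), with 6 chromosomes above and 3 below. These 2 kinds of contact were not matched for distance, as the ends are the bins of a chromosome that lie farthest apart. Over all cis bin pairs at 100 Mb and over the log2 ratio was 0.19 in each KD library. Whether ends differed at equal distance was not tested, and these values carry no test.

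Bins of all compartment levels had a higher trans share in the KD libraries. With bins sorted into 5 groups of 527 by the ARID1A KO eigenvectors that matched the control best, the group farthest on the B side had median log2 ratios of 0.18 and 0.18, the middle group 0.15 and 0.15, and the group farthest on the A side 0.16 and 0.17. The local share was higher in all 5 groups, with median log2 ratios of 0.04 and 0.04 at the B end and 0.03 and 0.03 at the A end. These values carry no test.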
